A study of Rattus norvegicus with 10 samples.

Results

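The genes examined were those of the beta-arrestins, of 3 protein kinase C (PKC) isoforms and of the Ca2+/calmodulin-dependent protein kinase II (CaMKII) subunits, which act on opioid receptors after the agonist has bound. They were chosen by name (Arrb1, Arrb2, Prkca, Prkcb, Prkce, Camk2a, Camk2b, Camk2d and Camk2g), and a probe was taken where its RefSeq mRNA accession belongs to the gene. Of these 9 genes, 8 were matched to 10 probes, out of 13888 genes with a matched mRNA probe on the array. Camk2b was read by 3 probes, for the transcripts NM_001042354.1, NM_001042356.1 and NM_021739.2, and each of the other 7 genes by 1 probe. Prkca was not analysed here, because no accession of the array was paired with it in the annotation used.

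The samples were total RNA from the lumbar enlargement of the spinal cord of male Sprague Dawley rats of 240 to 260 g. Morphine tolerance (MT) rats, numbered 1 to 5, received 10 μg of morphine in 10 μl into the intrathecal space 2 times a day for 7 days, and normal saline (NS) rats, numbered 6 to 10, received 10 μl of saline on the same schedule. By the authors' account, a further morning injection of morphine or saline was given on the day of tissue collection, 1 hour before anesthesia. Both groups therefore shared the intrathecal injections, and no uninjected rats were compared. Each rat gave 1 one-colour array that carries lncRNA and mRNA probes.

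Opioid receptors signal through inhibitory G proteins until kinases phosphorylate the receptor tail. Beta-arrestins bind the phosphorylated receptor, block further coupling to the G protein and link the receptor to clathrin and its adaptor AP-2. PKC, which is activated by diacylglycerol and, for its classical isoforms, Ca2+, can phosphorylate receptors and channels, and CaMKII is a multi-subunit kinase of synapses that Ca2+/calmodulin switches on. All of these enzymes and adaptors are controlled mainly after translation, so the array reads their transcripts and not their activity, phosphorylation or location.

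None of the 10 arrestin, PKC and CaMKII probes passed the test for a difference between MT and NS rats, measured against the spread between rats. Their differences ran from -0.31 on the log2 scale for Arrb1 to 0.21 for Camk2a, with adjusted p between 0.462 and 0.980 by limma with Benjamini-Hochberg adjustment over 20284 RNAs. At an adjusted p of 0.05, 0 of the 10 probes were called, against 0.197% of all RNAs tested. At an unadjusted p of 0.05, 0 of 10 were called against 16.4% of all RNAs, and 0 of 10 passed a linear fold above 1.5 with that p, against 2.74%. The MT and NS rats overlapped for every one of the 10 probes, whereas the groups did not overlap for 5.64% of all RNAs. The mean was higher in MT rats for 7 of the 10 probes, against 49.8% of all RNAs. The 95% interval of the linear MT to NS ratio differed between probes: it was 0.598 to 1.096 for Arrb1 and 0.816 to 1.63 for Camk2a, the widest, and 0.861 to 1.13 for Prkcb and 0.888 to 1.13 for the Camk2b probe NM_001042356.1. A ratio inside a probe's own interval was not excluded by the values of 5 rats a group. These intervals come from a fit without covariates, so they make no allowance for differences between slides, described below. All values below are normalized log2 intensities of 1 probe, which are not comparable between probes.

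**Figure D1:**
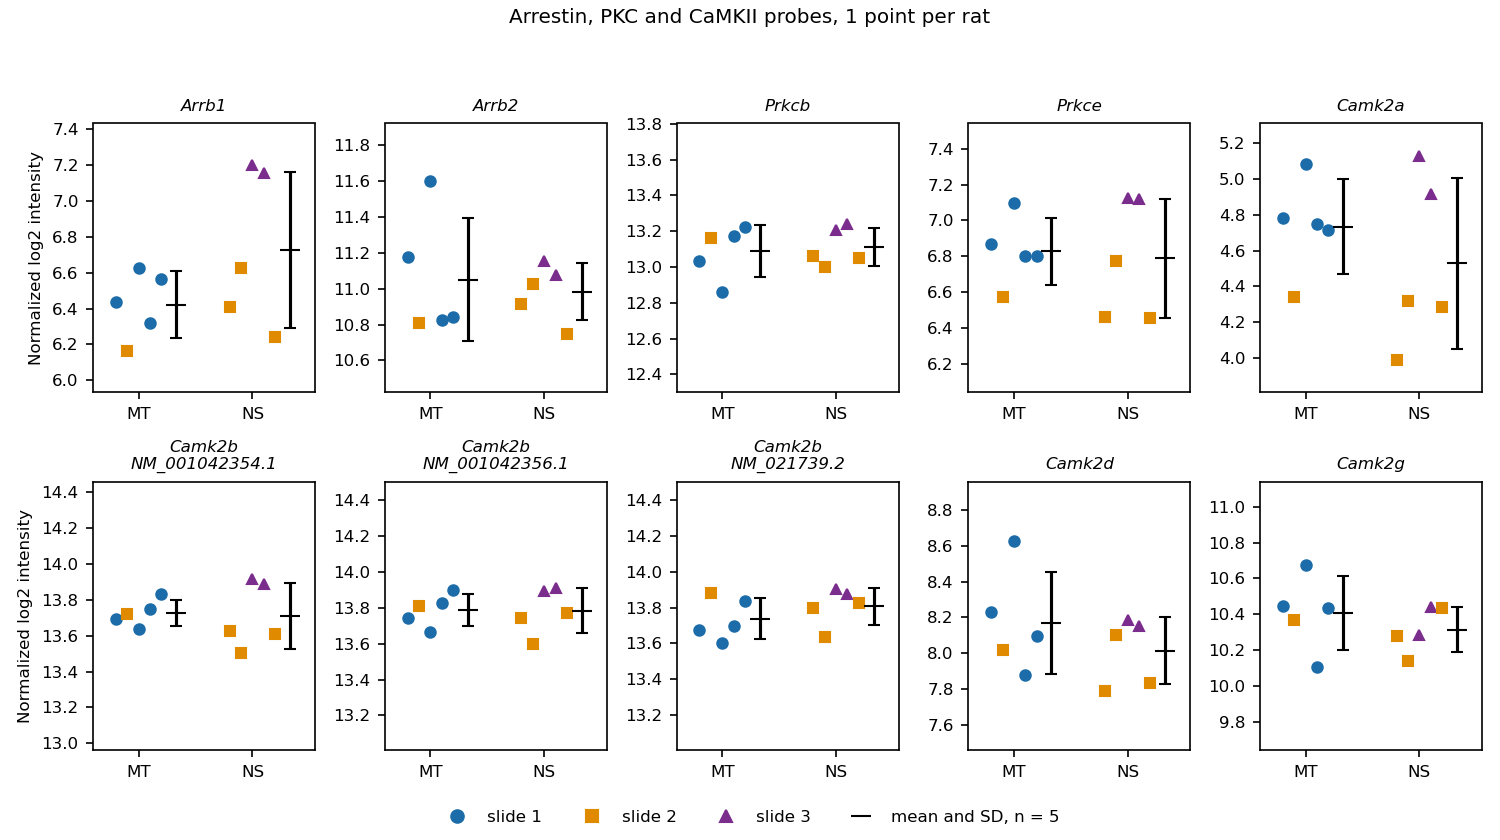
Normalized log2 intensity (y axis, 1.5 log2 units in each panel) of each arrestin, PKC and CaMKII probe in 5 MT and 5 NS rats, with points coloured by slide and bars for the mean and SD. The groups overlap in all 10 panels, and the 2 NS rats of slide 3 (triangles) lie above the 3 NS rats of slide 2 (squares) in 9 of them.

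By the scan time recorded in its header, each array belonged to 1 of 3 sets, called slides here. Slide 1 held MT rats 1, 3, 4 and 5, slide 2 held MT rat 2 with NS rats 6, 7 and 10, and slide 3 held NS rats 8 and 9. Slide 3 was dim: 58.6% to 63.8% of its spots were well above background, against 77.4% to 79.6% for the NS rats of slide 2 and 81.1% to 83.9% for the MT rats. Because no MT rat lies on slide 3 and no NS rat on slide 1, slide and group cannot be told apart outside slide 2, and the difference within slide 2 is given beside each gene. That difference sets 1 MT rat, rat 2, against the mean of 3 NS rats, and a fit with slide as a fixed block takes its value from the same 4 rats, so it rests on that 1 MT rat. All 10 probes passed the filter on dim probes and none had an outlier or saturated spot. Every probe was well above background on all arrays, except Camk2a, which was so on 5 of 5 MT arrays and 4 of 5 NS arrays. Of 10 neuron markers, 9 were tested and passed the filter, with a mean over the markers, centred on each marker's own mean, of -0.03 to 0.11 in MT and -0.19 to 0.06 in NS rats.

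Arrb1 encodes beta-arrestin 1 (gene on chromosome 1, 163249654 to 163321711 in GRCr8). Its levels were 6.43, 6.16, 6.63, 6.32 and 6.57 in MT rats 1 to 5 and 6.41, 6.63, 7.20, 7.16 and 6.24 in NS rats 6 to 10. The mean was 6.42 ± 0.19 in MT and 6.73 ± 0.44 in NS rats (SD, n = 5 each), a difference of -0.31 with a standard error of 0.20 (adjusted p = 0.462, limma). The higher NS mean came from NS rats 8 and 9, the pair on slide 3, since NS rats 6, 7 and 10 lay between 6.24 and 6.63 and the MT rats between 6.16 and 6.63. Without slide 3 the Arrb1 difference was -0.004, with a 95% interval of -0.30 to 0.30. Within slide 2, MT rat 2 was 0.26 log2 units below the mean of the 3 NS rats and was the lowest of the 10 rats.

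Arrb2 encodes beta-arrestin 2, the isoform whose loss in mice prolongs morphine analgesia (gene on chromosome 10, 55645539 to 55653485 in GRCr8). Its levels were 11.18, 10.81, 11.60, 10.83 and 10.84 in MT rats 1 to 5 and 10.92, 11.03, 11.16, 11.08 and 10.74 in NS rats 6 to 10. The difference was 0.07 with a standard error of 0.16 (adjusted p = 0.859, limma). MT rat 3 stood highest, and 3 of the 5 MT rats lay below 4 of the 5 NS rats. Without MT rat 3 the Arrb2 difference was -0.07. Within slide 2, the Arrb2 difference was -0.09, with MT rat 2 inside the range of the 3 NS rats.

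Prkcb encodes PKC beta, a classical isoform that needs both Ca2+ and diacylglycerol (gene on chromosome 1, 186263397 to 186594743 in GRCr8). Its levels lay close together, at 13.03, 13.16, 12.86, 13.17 and 13.22 in MT rats 1 to 5 and 13.06, 12.998, 13.20, 13.24 and 13.05 in NS rats 6 to 10. The difference was -0.02 with a standard error of 0.09 (adjusted p = 0.918, limma) and a 95% interval of -0.22 to 0.17. MT rat 3 was the lowest of all rats, and without slide 3 the sign turned to 0.05. Within slide 2, Prkcb in MT rat 2 was 0.12 above the mean of the NS rats.

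Prkce encodes PKC epsilon, a diacylglycerol-dependent isoform that does not need Ca2+ and is known for its role in nociceptor sensitization (gene on chromosome 6, 13718050 to 14204931 in GRCr8). Its levels were 6.87, 6.57, 7.10, 6.80 and 6.80 in MT rats 1 to 5 and 6.46, 6.77, 7.12, 7.12 and 6.46 in NS rats 6 to 10. The difference was 0.04 with a standard error of 0.16 (adjusted p = 0.917, limma). The rats separated by slide and not by group: all 4 rats of slide 2, MT rat 2 included, lay between 6.46 and 6.77, those of slide 1 between 6.80 and 7.10, and both of slide 3 at 7.12. Without slide 3 the Prkce difference was 0.26 (95% interval -0.03 to 0.56, adjusted p = 0.308, limma), whereas within slide 2 MT rat 2 was 0.01 from the mean of the 3 NS rats.

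Camk2a encodes the CaMKII alpha subunit, a kinase of excitatory neurons that is best known for synaptic plasticity (gene on chromosome 18, 56648779 to 56711505 in GRCr8). This was the dimmest of the 10 probes, with spot intensities before normalization of 27.8 to 43.5 in MT rats and 9.55 to 27.1 in NS rats. Its normalized log2 levels were 4.78, 4.34, 5.08, 4.75 and 4.72 in MT rats 1 to 5 and 3.99, 4.32, 5.13, 4.92 and 4.29 in NS rats 6 to 10. The mean was 4.73 ± 0.26 in MT and 4.53 ± 0.48 in NS rats (SD, n = 5 each), a difference of 0.21 with a standard error of 0.22 (adjusted p = 0.668, limma). As for Prkce, the 4 rats of slide 2 (3.99 to 4.34) lay below all rats of slide 1 (4.72 to 5.08) and of slide 3 (4.92 to 5.13), whichever group they belonged to. Such a pattern, all 4 rats of slide 2 below the other 6, was seen for 2 of the 10 probes and for 5.92% of all RNAs with a value on each array, and the opposite pattern for 0 of 10 and 7.26%. Without slide 3 the Camk2a difference was 0.54 (95% interval 0.17 to 0.90) with an unadjusted p of 0.00954 and an adjusted p of 0.208 by limma, in a fit where 18.3% of all RNAs had an unadjusted p below 0.05. Leaving out 1 rat moved the Camk2a difference between 0.070 (without NS rat 6) and 0.36 (without NS rat 8), and it was 0.12 without MT rat 3. The Camk2a difference also moved with the scaling, to 0.52 (adjusted p = 0.153, limma) when arrays were scaled by the 75th percentile, to 0.46 with array weights and to 0.066 under normexp background correction. Within slide 2, MT rat 2 exceeded the mean of the NS rats by 0.14 and the highest of them by less than the spread among those NS rats.

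Camk2b encodes the CaMKII beta subunit, which anchors the holoenzyme to actin (gene on chromosome 14, 85059166 to 85148121 in GRCr8). The probe for NM_001042354.1 read 13.64 to 13.83 in MT rats (median 13.72) and 13.50 to 13.92 in NS rats (median 13.62). The probe for NM_001042356.1 read 13.67 to 13.90 in MT rats (median 13.81) and 13.60 to 13.91 in NS rats (median 13.77). The probe for NM_021739.2 read 13.60 to 13.88 in MT rats (median 13.70) and 13.64 to 13.90 in NS rats (median 13.82). The Camk2b differences of the 3 probes were 0.02, 0.01 and -0.07 in that order, with standard errors of 0.08 to 0.09 and adjusted p of 0.933, 0.980 and 0.686 (limma). Their 95% intervals together spanned -0.25 to 0.23, and the probes of the gene moved together over the 10 arrays with a Pearson r of 0.66 to 0.93. The annotation gives the 3 accessions to 1 gene, and which exons the probes read was not analysed here. Within slide 2, MT rat 2 lay above the 3 NS rats with all 3 probes, by 0.15, 0.10 and 0.13 over their mean.

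Camk2d and Camk2g encode the delta and gamma subunits, which are also made outside neurons. The Camk2d gene lies on chromosome 2, 217698324 to 217961898 in GRCr8, and the Camk2g gene on chromosome 15, 3553238 to 3612310 in GRCr8. Camk2d levels were 8.23, 8.02, 8.62, 7.88 and 8.10 in MT rats 1 to 5 and 7.79, 8.10, 8.19, 8.15 and 7.83 in NS rats 6 to 10. The Camk2d difference was 0.16 with a standard error of 0.14 (adjusted p = 0.615, limma), with MT rat 3 highest and the other 4 MT rats within or close to the range of the NS rats. Without MT rat 3 the Camk2d difference was 0.042, and within slide 2 it was 0.11. Camk2g levels were 10.45, 10.37, 10.68, 10.10 and 10.44 in MT rats 1 to 5 and 10.28, 10.14, 10.29, 10.44 and 10.43 in NS rats 6 to 10. The Camk2g difference was 0.09 with a standard error of 0.11 (adjusted p = 0.697, limma). It was 0.024 without MT rat 3, 0.17 without MT rat 4 and 0.084 within slide 2. Both extremes of Camk2g, MT rat 3 and MT rat 4, were MT rats, so the NS values lay inside the range of the MT values. Because the tissue was taken whole, fewer cells of a type and less RNA per cell cannot be told apart for any of these genes.

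**Figure D2:**
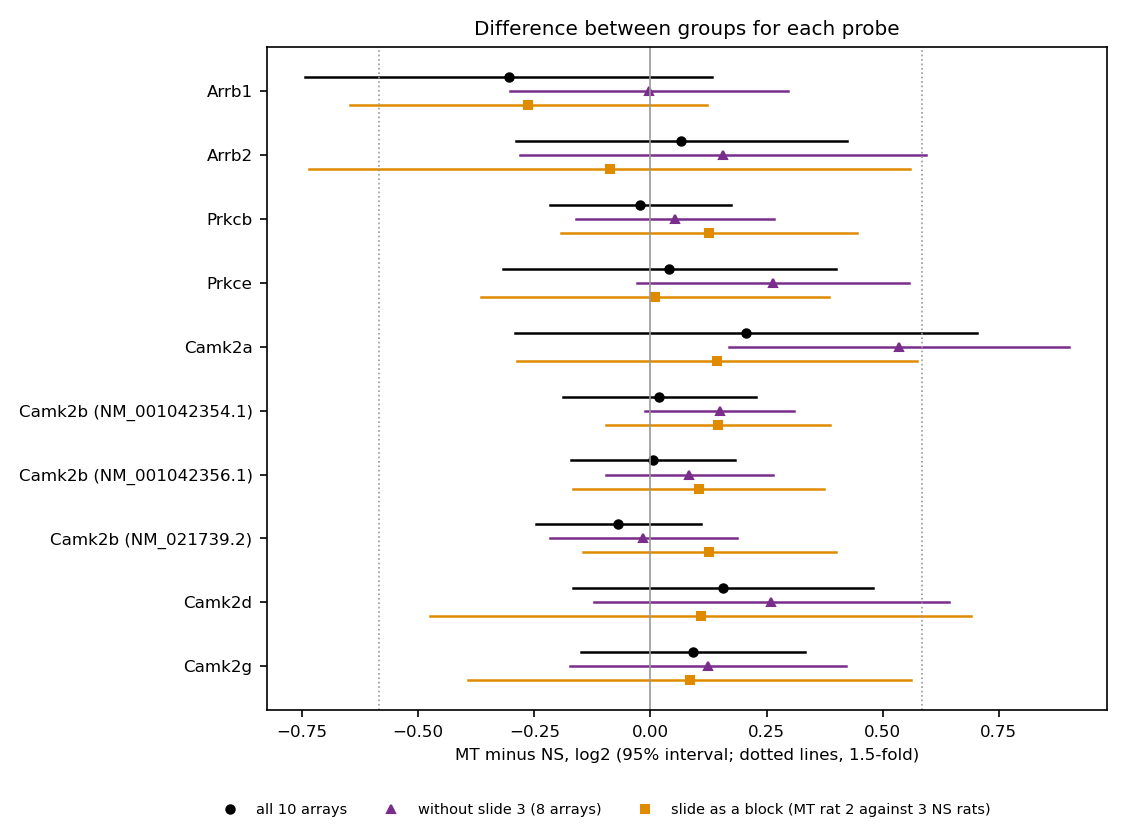
MT minus NS difference in normalized log2 intensity for each probe (x axis), with its 95% interval, from all 10 arrays, from the 8 arrays without slide 3, and with slide as a fixed block, which sets MT rat 2 against the 3 NS rats of slide 2. All intervals include 0 except that of Camk2a without slide 3 (0.17 to 0.90), and dotted lines mark a linear fold of 1.5.

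Among the 10 probes, the difference between the NS rats of slide 3 and slide 2 was larger in size than that between MT and NS for every probe but Camk2g. NS rats 8 and 9 lay above NS rats 6, 7 and 10 for 9 of the 10 probes, against 38.2% of 20239 RNAs, and below them for 0 of 10, against 25% of RNAs. The exception was again Camk2g. The gap was 0.82 log2 units for Camk2a, 0.75 for Arrb1 and 0.56 for Prkce, and its median was 0.24 over the 10 probes, against 0.09 over all RNAs. These gaps are in values after quantile normalization. Before it, the median spot intensity was 42.1 and 29.8 in NS rats 8 and 9, against 75.1 to 101 in NS rats 6, 7 and 10. No probe then had NS rats 8 and 9 both above NS rats 6, 7 and 10. The part of the normalization in the gap was not tested. The share of the sum of squares over the 10 arrays that lay between the 3 slides was 85.2% for Camk2a, 83.7% for Arrb1 and 78.6% for Prkce, and 10.0% for Camk2g, with a median of 42.1% over the probes and 55.4% over all RNAs. The share between the 2 groups ran from 0.07% for the Camk2b probe NM_001042356.1 to 20.6% for Arrb1, with a median of 5.02% over the probes and 12.8% over all RNAs. Slide has 3 levels and group 2, and the shares overlap because slide and group do. Within slide 2, MT rat 2 lay above the 3 NS rats for 5 probes (Prkcb, Camk2a and the 3 of Camk2b), below them for Arrb1 and within their range for 4, against 25.7% of RNAs above and 22.8% below.

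**Figure D3:**
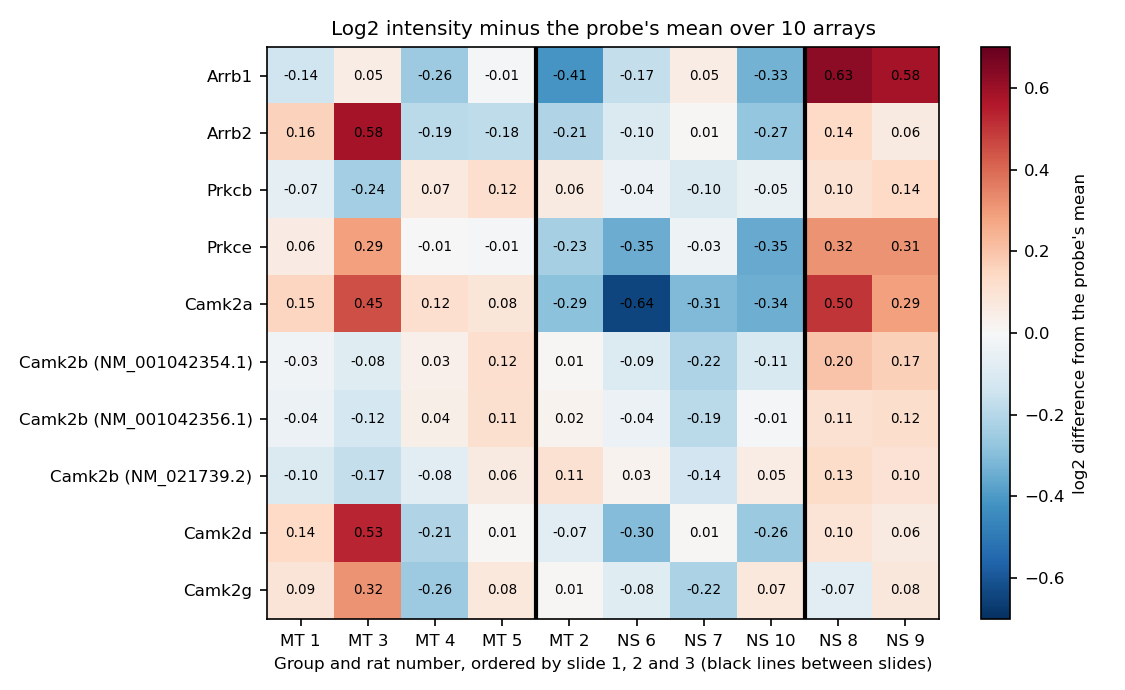
Log2 intensity of each probe minus its mean over the 10 arrays, with rats ordered by slide (black lines between slides). NS rats 8 and 9 on slide 3 are above 0 in every row but the Camk2g value of rat 8 (-0.07), and MT rat 3 is high for Arrb2 (0.58), Camk2d (0.53) and Camk2g (0.32) and low for Prkcb (-0.24).

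MT rat 3 lay at an extreme for 5 probes. It was the highest of the 10 rats for Arrb2, Camk2d and Camk2g and the lowest for Prkcb and the Camk2b probe NM_021739.2. Motor neuron markers in the same rat were at -0.41, against 0.12 to 0.46 in the other MT rats, while NS rats ranged from -0.58 to 0.28 and NS rats 7 and 10 were lower still. T and B cell markers in MT rat 3 were at 0.93, against -0.69 to 0.32 in the other MT rats, while NS rats ranged from -0.58 to 0.53, both as the mean over the markers of the list centred on each marker's own mean. The part of either in the MT rat 3 values was not tested. NS rat 8 was the highest for 5 probes and NS rat 9 for 2.

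Some pairs of probes varied alike over the 10 arrays, given as a description since arrays of a slide share a scan time and may vary together. Camk2a and Prkce had a Pearson r of 0.93, Arrb2 and Camk2d of 0.91, and Prkcb and the Camk2b probe NM_001042356.1 of 0.90, whereas Arrb2 and Prkcb had an r of -0.57. The pairs were not separate sets, since Prkce also had an r of 0.81 with Arrb1 and 0.77 with Camk2d. Among 12454 to 12456 other mRNAs with a symbol, the pattern most like Arrb1 was that of Cript (r = 0.979) and Coq7 (0.977), and that most like Arrb2 was C1h11orf58 (0.995) and Tpm3 (0.994). The RNAs most like Prkcb were Rtn2 (0.989) and Utp25 (0.982), and those most like Prkce were Stat6 (0.987) and Pla2g5 (0.983). Camk2a was most like Fam229a (0.969) and Cdc37 (0.968), Camk2d was most like Osbp (0.973) and Nrsn1 (0.970), and Camk2g was most like Mul1 (0.970) and Psd (0.960). For Camk2b the likest were Sfxn3 (0.973) and Hsdl1 (0.970) for NM_001042354.1, Dlk2 (0.991) and Eno1 (0.971) for NM_001042356.1, and Dmd (0.976) and Ugp2 (0.968) for NM_021739.2.

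The wider pathway was described with 7 lists of 114 genes, of which 98 were tested through 105 mRNAs. None passed an adjusted p of 0.05 (limma), 8 were higher and 9 lower in MT rats at an unadjusted p of 0.05, which together make 16.2% against 16.4% of all RNAs. The median difference was -0.01 and 48.6% of the mRNAs had the higher mean in MT rats, against 49.8% of all RNAs. The groups did not overlap for 9 mRNAs, 8.57% of the lists against 5.64% of all RNAs. These were Clta, Dnm1, Prkd2, Plcb4, Camk1 and Ppp3cb, higher in MT rats, and Grk4, Prkd3 and Itpr1, lower.

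G protein-coupled receptor kinases phosphorylate the receptors that arrestins then bind. Of the 12 mRNAs of the kinase and arrestin family list, 0 passed the adjusted threshold, 2 were lower at an unadjusted p of 0.05, and 2 had the higher mean in MT rats, with a median of -0.17. Grk4 read 9.02, 8.95, 8.86, 9.06 and 8.72 in MT rats 1 to 5 and 9.14, 9.15, 9.61, 9.64 and 9.32 in NS rats 6 to 10. All MT rats lay below all NS rats, by -0.45 on average (standard error 0.12, adjusted p = 0.142, limma), and without slide 3 the Grk4 difference was -0.28 (adjusted p = 0.217). Sag, the arrestin of rod photoreceptors, differed by -0.60 (adjusted p = 0.184) with overlap, and by -0.37 without slide 3. Grk2, the kinase most studied at opioid receptors, differed by -0.24 (adjusted p = 0.390) and is named here after its value was seen. On slide 3 the mean of this list, each mRNA centred on its own mean, was 0.30 and 0.46, against -0.10 to -0.02 in the NS rats of slide 2 and -0.19 to -0.06 in the MT rats.

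Of the 17 mRNAs of clathrin endocytosis, which carries arrestin-bound receptors into the cell, 2 were higher at an unadjusted p of 0.05 and none lower, with a median of -0.03. Clta, clathrin light chain A, lay between 11.52 and 12.06 in MT rats and between 11.26 and 11.47 in NS rats, a difference of 0.37 (standard error 0.11, adjusted p = 0.159, limma). The gap stayed at 0.34 without slide 3 (adjusted p = 0.238), and within slide 2 it was 0.12. Dnm1, the neuronal dynamin that cuts vesicles from the membrane, differed by 0.19 (adjusted p = 0.239).

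Among the 9 other kinases of the PKC family, 1 was higher and 2 lower at an unadjusted p of 0.05, and 1 had the higher mean in MT rats, with a median of -0.17. The one with the higher mean was Prkd2, protein kinase D2, which lies downstream of PKC. Prkd2 read 8.25, 7.89, 8.48, 8.00 and 8.07 in MT rats 1 to 5 and 7.58, 7.58, 7.87, 7.88 and 7.62 in NS rats 6 to 10, a difference of 0.43 (standard error 0.12, adjusted p = 0.154, limma). The lowest MT rat, rat 2, was above the highest NS rat by a small margin, and the difference was 0.54 without slide 3 (adjusted p = 0.178) and 0.30 within slide 2. Prkcd, PKC delta, differed by -0.36 (adjusted p = 0.232) with overlap.

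Upstream of PKC, Gq proteins and phospholipase C make diacylglycerol and diacylglycerol kinases remove it. Of 17 such mRNAs, 1 was higher and 2 lower at an unadjusted p of 0.05, with a median of 0.01, and Plcg2 (-0.27, adjusted p = 0.153, limma) and Plcb4 (0.20, adjusted p = 0.188) had the smallest p. Of 18 mRNAs of PKC scaffolds and substrates, none was higher and 2 lower, with a median of -0.01. These were Ppp1r14a, a PKC-activated inhibitor of myosin phosphatase (-0.23, adjusted p = 0.265, and -0.11 without slide 3), and Akap5, which anchors PKC and calcineurin at synapses (-0.44, adjusted p = 0.271).

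Of 11 mRNAs of other calmodulin-dependent kinases, 1 was higher and none lower at an unadjusted p of 0.05, with a median of 0.06. Camk1, a kinase that is switched on by CaM kinase kinase, lay between 8.44 and 8.78 in MT rats and between 8.16 and 8.40 in NS rats, a difference of 0.30 (standard error 0.09, adjusted p = 0.165, limma), and 0.34 without slide 3. Dapk2 differed by -0.16 (adjusted p = 0.478), by -0.067 without slide 3 and by 0.035 within slide 2. Of 21 mRNAs of CaMKII regulators (calmodulins, inhibitors, phosphatases and anchors), 3 were higher and 1 lower, 15 of 21 had the higher mean in MT rats, against 49.8% of all RNAs, and the median was 0.08. Ppp3cb, a catalytic subunit of calcineurin, differed by 0.32 (adjusted p = 0.247) and Ppp1cc, a catalytic subunit of protein phosphatase 1, by -0.22 (adjusted p = 0.245), with 0.018 within slide 2 for Ppp1cc and 0.15 for Ppp3cb. The mean of the regulators, each mRNA centred on its own mean, ranged from 0.01 to 0.10 for MT and from -0.06 to -0.04 for NS, without overlap. Within slide 2, MT rat 2 had the lowest MT value (0.006), against -0.065 to -0.047 in the NS rats. The other MT rats were all on slide 1, where slide and group cannot be told apart. Neuron markers lay on the same side, with 6 of 9 higher in MT rats and a median of 0.16, and their part in the regulators' values was not tested. Camk2n1, an inhibitor that binds CaMKII, differed by 0.08 (adjusted p = 0.735) and is named here after its value was seen.

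Markers of other cell types were read on the same arrays, and none of the markers listed passed an adjusted p of 0.05 (limma). At an unadjusted p of 0.05, which 16.4% of all RNAs passed, 6 of 9 microglia markers and 2 of 6 T and B cell markers (Cd22 and Cd79b) were lower in MT rats, and 3 of 6 neutrophil markers and 3 of 9 neuron markers (Rbfox3, Uchl1 and Elavl4) were higher. Cd22 differed by -1.05 and Cd79b by -0.89, and the neuron markers by 0.27 for Rbfox3 and 0.16 for Uchl1 and for Elavl4. In the T and B cell list, Cd3d (0.25) and Cd8a (0.23) had the higher mean in MT rats, and Cd2 (-0.01) and Cd3e (-0.005) the lower. Of the 9 neuron markers, 6 had the higher mean in MT rats, and Nefh (-0.10), Nefl (-0.01) and Nefm (-0.01) the lower. At the same p, 2 of 9 astrocyte mRNAs and 2 of 13 oligodendrocyte mRNAs were lower. An Slc1a2 mRNA was among the former (-0.31), while the other Slc1a2 mRNA had the higher mean in MT rats (0.24). Of 9 microglia markers, 0 had the higher mean in MT rats (median -0.34), and their centred mean was -0.52 to 0.04 in MT and -0.09 to 0.45 in NS rats. By slide, the microglia mean was -0.09 to 0.28 in the NS rats of slide 2 and 0.33 to 0.45 in those of slide 3. In MT rat 2, on slide 2, it was -0.35. Of 6 neutrophil markers, 5 had the higher mean in MT rats (median 0.64), with a centred mean of 0.13 to 0.48 in MT and -0.65 to -0.11 in NS rats, and Ltf was below the filter. Their part in the values of the arrestin, PKC and CaMKII probes was not tested.

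**Figure D4:**
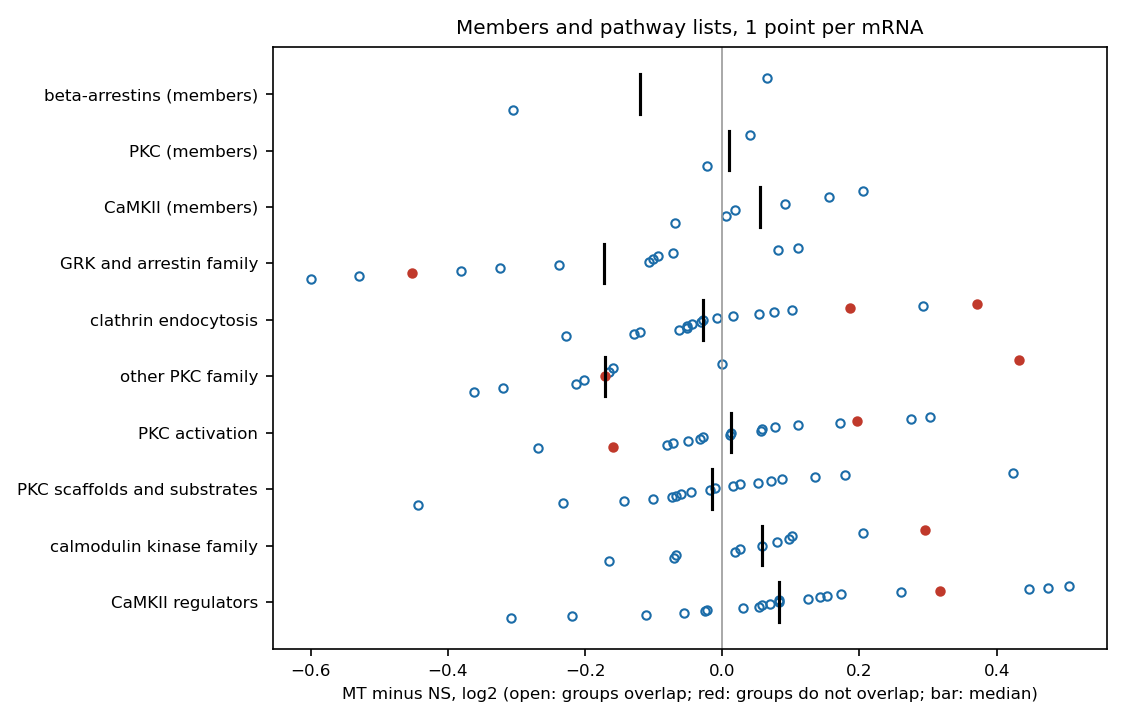
MT minus NS difference in normalized log2 intensity (x axis) for the arrestin, PKC and CaMKII probes and for the 105 mRNAs of 7 pathway lists, with 1 point per mRNA and a bar at each list's median. Filled red points mark the 9 mRNAs whose groups do not overlap. The medians furthest from 0 are -0.172 for the kinase and arrestin family and -0.171 for the other PKC family.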

How the data were processed

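The authors scanned the arrays and extracted spots with Agilent Feature Extraction 11.0.1.1 (per the submitters' processing notes), and deposited spot intensities after background subtraction, 1 file per array, together with outlier and background flags. The authors also deposited a table of quantile-normalized log2 values (column medians 6.82 to 6.83), which was used as an alternative. The centring of those log2 values was not stated. The array was designed on an earlier assembly. Positions given are therefore gene positions in GRCr8 and do not locate a probe.

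Here the intensities (42136 spots that were not controls of 43553 per array) were floored at 1, converted to log2 and then subjected to quantile normalization (R 4.3.3, limma 3.58.1). After outlier spots had been removed, the mean was taken per probe (24684 probes, 15323 for mRNAs) and probes per RNA. Probes with over 50% of spots flagged as above background on 5 or more arrays were retained, leaving 20284 RNAs with values in both groups, 13373 of them mRNAs. RefSeq accessions, without their versions, named 14274 mRNA probes. MT was compared with NS by linear models with empirical Bayes moderation over all of these RNAs, without covariates, as a two-sided test with Benjamini-Hochberg adjustment, and intervals are at 95%. The 63 RNAs with a missing value were fitted on the remaining arrays, and none of the 10 arrestin, PKC and CaMKII probes was among them. Rats were separate animals with 1 array each, and the number of arrays limits the precision.

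The genes and lists were chosen with earlier results of these data known. The genes named were the 9 listed genes, in each pathway list the genes past the adjusted threshold or else the 2 with the smallest unadjusted p, the 2 mRNAs most like each probe by Pearson r, and markers that a statement needs. The remaining mRNAs without overlap were named because they are few, after their values were seen.

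Alternatives were other scaling, background correction, filters, tests and slide blocks, the deposited table, and leaving out each rat or slide 3. The scanner output used here holds the median and not the mean spot signal, so normexp (offset 50) was run on the median signal, a choice made after seeing the data. Marker lists covered neurons, motor neurons, astrocytes, oligodendrocytes, microglia, neutrophils, T and B cells, erythrocytes, dorsal root ganglion, endothelium, meningeal fibroblasts and skeletal muscle. Median differences between MT and NS in the lists not given above were 0.16 for neurons, 0.29 for motor neurons, -0.02 for astrocytes, 0.02 for oligodendrocytes, -0.01 for T and B cells, -0.01 for erythrocytes, 0.02 for dorsal root ganglion, -0.05 for endothelium, 0.39 for fibroblasts and 0.05 for muscle. Figures were drawn with matplotlib in Python, and no array was left out of the main comparison.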

Additional observations from a re-analysis of the deposited data

How the results depend on the processing

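Under 23 settings none of the 10 arrestin, PKC and CaMKII probes passed an adjusted p of 0.05 (lowest adjusted p 0.150, limma), and of 229 values 4 had an unadjusted p below 0.05, 3 for Camk2a and 1 for Arrb1. With slide as a fixed block, a value that rests on MT rat 2 against 3 NS rats, the sign turned for Arrb2 (-0.088), Camk2b NM_021739.2 (0.13) and Prkcb (0.12), and with slide as a random block for Arrb2 (-0.022), Camk2b NM_021739.2 (0.017), Prkcb (0.037) and Prkce (-0.0091). The Prkcb sign also turned with array weights (0.049) and without slide 3 (0.053). Camk2b turned under scaling by the 75th percentile (-0.012 for NM_001042354.1 and -0.025 for NM_001042356.1), which moved the median of all RNAs to 0.074, and under normexp (-0.038 and -0.015). Leaving out 1 rat at a time gave -0.072 (without MT rat 3) to 0.13 for Arrb2, -0.033 to 0.072 for Camk2b NM_001042354.1, -0.041 to 0.037 for Camk2b NM_001042356.1, -0.054 to 0.035 for Prkcb and -0.042 to 0.12 for Prkce. With 1 rat left out the other probes kept their sign, at -0.43 to -0.19 for Arrb1, 0.070 to 0.36 for Camk2a, 0.042 to 0.23 for Camk2d, 0.024 to 0.17 for Camk2g and -0.11 to -0.036 for Camk2b NM_021739.2. For the probes whose sign turned under any setting, the values given in the report lay between -0.07 and 0.07. The cause of the turns was not tested.

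The 40 RNAs past an adjusted p of 0.05 over the whole array became 183 with array weights, 66 in the deposited table, 120 with a filter on all 10 arrays, 12 with no filter, 147 under normexp, 117 with a variance trend and 2 without slide 3. With slide as a fixed or a random block the limma count was 0, with 839 and 1423 RNAs at an unadjusted p below 0.05. With 1 rat left out it ran from 0 (without MT rat 1 or NS rat 9, with 2248 and 2479 at that unadjusted p) to 84 (without MT rat 2). The 555 RNAs past a linear fold of 1.5 with an unadjusted p of 0.05 became 349 with a filter on all arrays, 912 with no filter, 199 under normexp, 337 and 328 with the fixed and random block, 22 at a log2 fold of 1.5, and 426 to 867 with 1 rat left out. Camk2a was not kept by the filter on all 10 arrays. The planned normexp on the mean signal was not run. No paired analysis was possible because the rat numbers of the groups (1 to 5 and 6 to 10) are not shared.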
